A study of Rattus norvegicus with 24 samples.

Results

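The microRNAs miR-143-3p and miR-145-5p of the smooth muscle miR-143/145 cluster were followed in rat serum. They were taken by name (rno-miR-143-3p and rno-miR-145-5p), 2 of the 753 mature miRNA names in the deposited tables, of which 440 had a count and 136 were abundant enough to be tested. Male Wistar Kyoto rats were crossed over 2 diets and 2 inhalation exposures, and the small RNA of each rat's serum gave 1 library. The rats had fish oil with ozone (5 libraries), fish oil with filtered air (6), the normal facility chow with ozone (6), or that chow with filtered air (6). Fish oil was 6% of the weight of its diet, each diet was given from 4 weeks of age for 8 weeks, and ozone at 0.8 ppm or filtered air was then breathed for 4 h on each of 2 days. Replicate 2 of the fish oil ozone group was not analysed here. A diet difference below is one between these feeds: added oil of any kind and fish oil itself cannot be told apart. Animal numbers ran in separate blocks by group, so that a batch following those blocks cannot be told apart from the groups.

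The cluster is one of the best known marks of smooth muscle. Both miRNAs are cut from a shared primary transcript, are abundant in vascular and visceral smooth muscle and in other mesenchymal cells such as fibroblasts, and in mice they help to hold vascular smooth muscle in its contractile state. Serum contains no smooth muscle, so a serum level reports RNA released into blood, and in bulk serum more cells releasing an RNA cannot be told apart from more RNA released per cell.

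The mature sequences show which reads were counted and how the pair differ. They are written 5′ to 3′ from RefSeq (build GRCr8, minus strand), with the seed, bases 2 to 8, which pairs with target transcripts, in capitals.
rno-miR-143-3p: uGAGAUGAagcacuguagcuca
rno-miR-145-5p: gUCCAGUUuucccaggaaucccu
The seeds differ from each other, and no other name among the 693 mature rat miRNAs of the RefSeq table carried either one. The hairpins show the arm from which each comes, with both mature arms in capitals.
Mir143: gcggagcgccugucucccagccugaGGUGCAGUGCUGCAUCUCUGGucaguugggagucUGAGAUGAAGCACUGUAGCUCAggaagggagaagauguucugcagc
Mir145: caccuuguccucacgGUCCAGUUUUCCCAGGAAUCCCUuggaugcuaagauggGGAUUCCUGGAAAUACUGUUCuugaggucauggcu
The 3p arm of the 105-base Mir143 hairpin and the 5p arm of the 88-base Mir145 hairpin are the 2 miRNAs followed here. In the deposited tables, on build rn5 with coordinates as the files give them, miR-145-5p lies on chromosome 18 from 56198870 to 56198893 and miR-143-3p from 56200210 to 56200232, with 1317 bases from the end of the one to the start of the other. Each name had 1 locus in the tables, and its counts held no fractions.

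MiR-143-3p was among the miRNAs with the most reads in every library, whereas miR-145-5p had few, although both come from one transcript. These are counts of reads, and the amounts of the RNAs themselves were not measured. Counts of miR-143-3p ran from 3578 to 13761 per library, and counts of miR-145-5p from 5 to 49. The miRNA total was 23276 to 94264 counts per library. MiR-143-3p outnumbered miR-145-5p by a median of 600 to 1, from 156 in normal diet air replicate 3 to 1046 in fish oil air replicate 5. The depth behind the pair is therefore unequal: the lowest miR-145-5p count, 5, has an exact Poisson 95% interval of 1.62 to 11.7, and the lowest miR-143-3p count, 3578, one of 3462 to 3697, both covering counting error only.

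Among all miRNAs, miR-143-3p ranked first in 5 of 5 fish oil ozone libraries and in 5 of 6 fish oil air libraries, and second in the other. On the normal diet it was second in 6 of 6 ozone libraries and in 4 of 6 air libraries and held rank 3 in the remaining 2. MiR-191a-5p, an abundant miRNA of platelets and leukocytes, held first place in the 12 normal diet libraries and in 1 fish oil air library. The rank of miR-145-5p lay between 64 and 148.

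Fish oil rats had a higher share of miR-143-3p among serum miRNAs. It made up 33.2%, 26.8%, 26.4%, 34.0% and 20.6% of the miRNA counts in fish oil ozone replicates 1, 3, 4, 5 and 6. In normal diet ozone rats the lowest, median and highest shares were 8.68%, 10.9% and 16.3%, below all 5 fish oil ozone values. How many other miRNAs separated these groups in the same way is not given here. In air the shares were 15.4%, 26.2% and 35.7% (lowest, median, highest) on fish oil, against 8.22%, 11.3% and 22.05% on the normal diet. These ranges overlapped through normal diet air replicate 4, the library at that highest share, and 4 of 6 fish oil air libraries were above it.

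The difference in share was 16.4 points in ozone (two-sided exact permutation test, p = 0.00216; adjusted p = 0.0195 over 18 such tests) and 14.6 points averaged over exposures (exact p = 3.05e-05, adjusted p = 0.000548). In air it was 12.7 points (exact p = 0.0152, adjusted p = 0.0623), which did not pass the threshold of 0.05 used throughout, and passed it without fish oil air 2, fish oil air 3 or normal air 4. For miR-145-5p the share was 0.0652% ± 0.0280 in fish oil ozone, 0.0609% ± 0.0390 in fish oil air, 0.0248% ± 0.0142 in normal diet ozone and 0.0286% ± 0.0221 in normal diet air (SD). Averaged over exposures it was 0.0364 points higher on fish oil (exact p = 0.00405, adjusted p = 0.0243), which did not pass without fish oil air 1 (exact permutation, adjusted p = 0.0510), and neither exposure passed alone (exact permutation, adjusted p = 0.0623 in ozone and 0.240 in air). A share is bound to the rest of the library, and here the rest was smaller on fish oil. All other miRNAs together had 23811 ± 5326 counts in fish oil ozone, 27409 ± 7573 in fish oil air, 55967 ± 18319 in normal diet ozone and 57885 ± 15562 in normal diet air (SD, n = 5, 6, 6 and 6). MiR-143-3p itself averaged 9469 ± 2872, 9830 ± 4729, 7375 ± 2670 and 7735 ± 1933 counts in those groups.

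**Figure D1:**
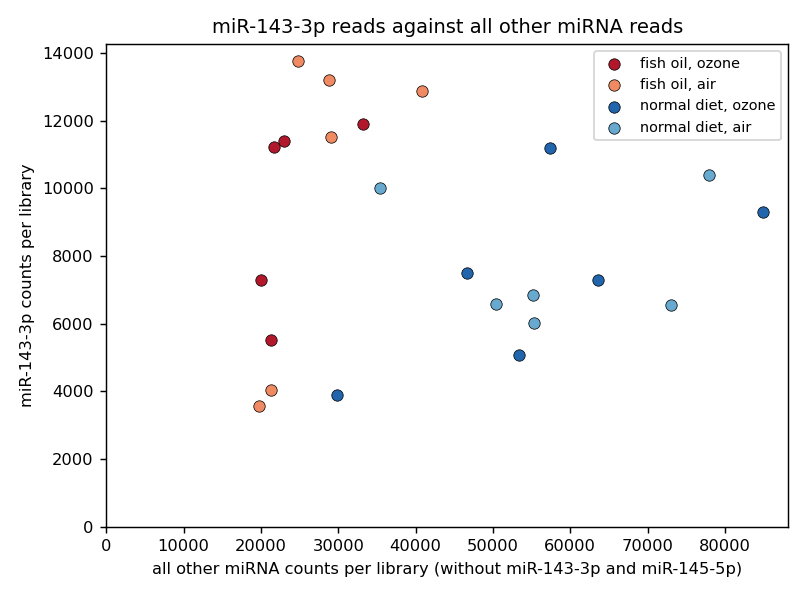
Counts of miR-143-3p (vertical axis) against the counts of all other miRNAs (horizontal axis), 1 point per library, coloured by group. Fish oil libraries lie to the left, at 19693 to 40790 other counts, against 29837 to 84956 in normal diet libraries, while miR-143-3p counts overlap between the diets.

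For the tests across miRNAs, library sizes were adjusted by TMM, the trimmed mean of M values, and levels are given as CPM, counts scaled to one common library size. The order of the group means was the same for both miRNAs: fish oil ozone, fish oil air, normal diet air, normal diet ozone. MiR-143-3p had 351145, 240292, 267876, 436051 and 167490 CPM in fish oil ozone replicates 1, 3, 4, 5 and 6. In normal diet ozone its lowest, median and highest levels were 79488, 116924 and 189683 CPM. Of the 5 fish oil ozone libraries, 4 were above the highest normal diet ozone library, and replicate 6 was not.

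MiR-143-3p averaged 292571 ± 103689 CPM in fish oil ozone and 120930 ± 39461 CPM in normal diet ozone (SD, n = 5 and 6). The edgeR quasi-likelihood test gave a log2 difference of +1.27 (SE 0.34, adjusted p = 0.00913). In air its lowest, median and highest levels were 110058, 245109 and 381015 CPM on fish oil, against 86055, 118647 and 269123 CPM on the normal diet. These groups overlapped, with 3 of 6 fish oil libraries above the highest normal diet library. Means in air were 246243 ± 116579 CPM on fish oil and 136063 ± 67089 CPM on the normal diet (n = 6 each), a log2 difference of +0.86 (SE 0.32, edgeR adjusted p = 0.102) that did not pass. That call was gained without fish oil air 3 (edgeR adjusted p = 0.0430) or without normal air 4 (edgeR adjusted p = 0.0278).

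MiR-145-5p, with fewer reads, had the same pattern with a wider spread. Its level was 1047, 395, 315, 1089 and 546 CPM in fish oil ozone replicates 1, 3, 4, 5 and 6, against 93.9, 240 and 504 CPM (lowest, median, highest) in normal diet ozone. The groups overlapped, with 3 of 5 fish oil ozone libraries above the highest normal diet ozone library, replicate 6. Means were 678 ± 365 CPM in fish oil ozone and 253 ± 142 CPM in normal diet ozone (n = 5 and 6), a log2 difference of +1.42 (SE 0.50, edgeR adjusted p = 0.0368). This call was lost on leaving out any one of 14 libraries, with an edgeR adjusted p of up to 0.162: fish oil ozone 1, 3, 5 and 6, fish oil air 6, normal ozone 1 to 5 and normal air 1, 4, 5 and 6.

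In air miR-145-5p had 181, 417 and 1359 CPM on fish oil, against 132, 205 and 614 CPM on the normal diet (lowest, median, highest). Here 2 of 6 fish oil libraries were above the highest normal diet library. Means were 598 ± 464 CPM on fish oil and 294 ± 188 CPM on the normal diet (n = 6 each), a log2 difference of +1.03 (SE 0.47, edgeR adjusted p = 0.156) that did not pass. The floor set for telling a level from 0, a count of 3, was 28.3 to 117 CPM across libraries, so the lowest miR-145-5p levels stood close to the limit of counting.

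**Figure D2:**
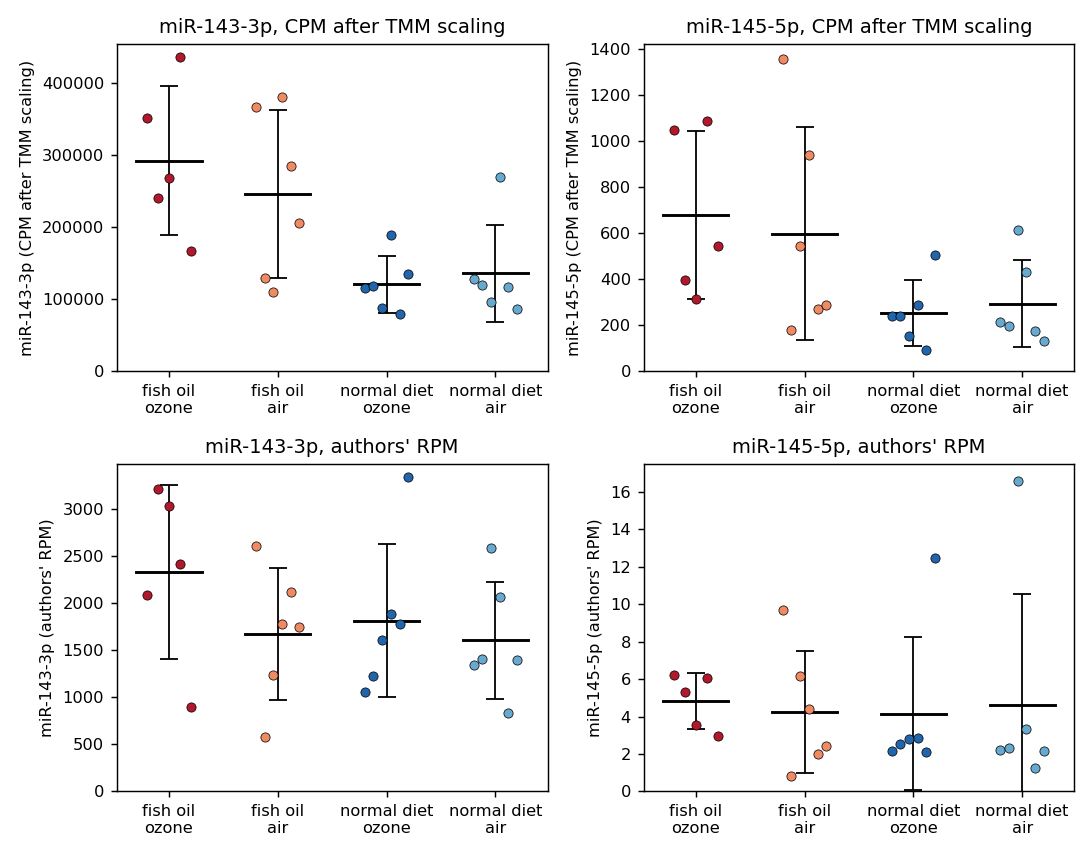
Levels of miR-143-3p (left) and miR-145-5p (right) in each library, as TMM-scaled CPM (top) and as the authors' RPM (bottom). Points are libraries, bars are means, and whiskers are SD, cut at 0. On the CPM axes both fish oil groups average above both normal diet groups, and on the RPM axes the 4 groups overlap.

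Averaged over exposures, both miRNAs rose with fish oil relative to the other miRNAs, under TMM scaling. Scaled to the library total behind the authors' RPM, neither passed, as given below. MiR-143-3p was higher by a log2 difference of 1.07 (SE 0.23, edgeR adjusted p = 0.000913), with 10 of 11 fish oil libraries above the normal diet mean. MiR-145-5p was higher by 1.22 (SE 0.34, edgeR adjusted p = 0.00585), with 9 of 11 above that mean. Both calls held in edgeR on leaving out each of the 23 libraries in turn. By size of increase miR-145-5p was 6th and miR-143-3p 11th of the 136 tested.

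Many other miRNAs were called too. In the average over exposures 36.8% of the 136 miRNAs were called in either direction and 19.9% were called higher, against 2 of 2 here. In ozone 22.8% were called and 12.5% were called higher, again against 2 of 2. In air 5.88% were called and 0.735% were called higher, against 0 of 2, and at an unadjusted p below 0.05 the count was 39 of 136, with both miRNAs among them. Whether the diet difference differed between ozone and air was tested by the interaction, +0.42 for miR-143-3p (SE 0.47, edgeR adjusted p = 0.935) and +0.39 for miR-145-5p (SE 0.68, edgeR adjusted p = 0.947). Neither passed, nor did any other miRNA (0% called; 6 of 136 at an unadjusted p below 0.05, and 0 called by DESeq2 and by limma-voom).

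Fish oil rats had fewer miRNA reads in all, so the size of the diet difference depended on what the reads were divided by. The authors' RPM values divide each count by a library total that no source gives. This implied read total, recovered by dividing counts by RPM, was 2243920 to 7729940 reads, far above the miRNA counts. Unlike the miRNA counts, it was not lower on fish oil. It averaged 5.23e+06 ± 1.66e+06 on fish oil and 4.88e+06 ± 1.82e+06 on the normal diet (SD). The miRNA counts averaged 35462 ± 9503 and 64498 ± 17242. MiR-143-3p had 2091, 3222, 3032, 2422 and 901 RPM in fish oil ozone, and 1054, 1697 and 3343 RPM (lowest, median, highest) in normal diet ozone. In air it had 575, 1763 and 2607 RPM on fish oil and 832, 1404 and 2586 RPM on the normal diet. On this scale the diets overlapped across nearly their whole range.

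MiR-145-5p averaged 4.81 ± 1.49 RPM in fish oil ozone, 4.25 ± 3.26 in fish oil air, 4.15 ± 4.09 in normal diet ozone and 4.64 ± 5.89 in normal diet air. The normal diet means rested on normal ozone 6 at 12.5 RPM and normal air 3 at 16.6 RPM, each far above the next library of its group, at 2.87 and 3.31 RPM. These libraries had the lowest implied read totals of their groups, 2.24e+06 and 2.65e+06. They also had the highest miR-145-5p counts of their groups, 28 and 44.

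Scaled to the implied read total, the fish oil difference averaged over exposures was +0.21 for miR-143-3p (SE 0.28, edgeR adjusted p = 0.516) and +0.09 for miR-145-5p (SE 0.44, edgeR adjusted p = 0.857). Over all alternatives the adjusted p of these results ran from 1.45e-07 to 0.634 for miR-143-3p and from 0.00185 to 0.857 for miR-145-5p. In air that scaling turned the sign for miR-145-5p, to −0.08 (edgeR adjusted p = 0.927). The scaling moved the median of the 136 miRNAs to −0.87, against +0.06 with TMM, and called 1 higher and 70 lower, against 27 higher and 23 lower with TMM and 29 higher and 13 lower with the plain miRNA total. Relative to that median miR-143-3p was 1.08 higher, against 1.004 with TMM, and miR-145-5p 0.96 higher, against 1.16. On either scale both stood above the median miRNA. A change of library size moves all miRNAs of a library together, so the distance from the median is bound to change little. It is no separate evidence and was not tested. As a share of the implied total their levels did not differ past the threshold.

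MiR-143-3p takes so many counts that it bears on the scaling itself. When totals and TMM factors were computed without the pair, 20 miRNAs were called higher and 30 lower with fish oil averaged over exposures, and both still rose: miR-143-3p by 0.92 and miR-145-5p by 1.08 (edgeR adjusted p = 0.00285 and 0.0176). Under that scaling the ozone call of miR-145-5p was lost (+1.36, edgeR adjusted p = 0.0578). With the log2 miRNA total as a covariate, the averaged call of miR-145-5p was lost (+0.97, edgeR adjusted p = 0.230), as were the ozone calls of miR-143-3p (+1.33, edgeR adjusted p = 0.0699) and miR-145-5p (+1.14, edgeR adjusted p = 0.260). The miRNA total and the diet moved together in these libraries.

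**Figure D3:**
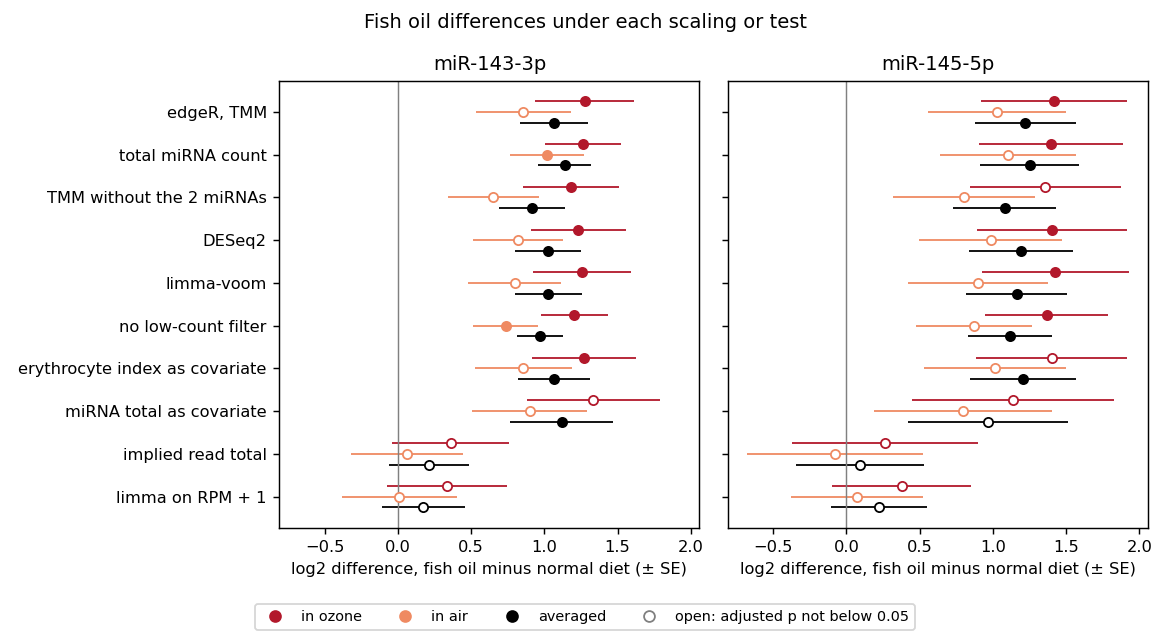
Log2 difference of fish oil minus normal diet (horizontal axis, ± SE) for each miRNA under 10 choices of scaling, filter, covariate or test, in ozone, in air and averaged over exposures. Filled points passed an adjusted p below 0.05. The averaged difference of miR-143-3p passed in 8 of the 10 rows and that of miR-145-5p in 7, and both lay close to 0 when divided by the implied read total.

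Ozone moved neither miRNA past the threshold on either diet. On fish oil, miR-143-3p differed by +0.25 between ozone and air (SE 0.34, edgeR adjusted p = 0.889) and miR-145-5p by +0.17 (SE 0.49, edgeR adjusted p = 0.983). On the normal diet the differences were −0.17 (SE 0.32) and −0.22 (SE 0.48), both with an edgeR adjusted p of 0.939. Averaged over diets they were +0.04 (SE 0.23, edgeR adjusted p = 0.975) and −0.03 (SE 0.34, edgeR adjusted p = 0.985), with signs that changed between scalings. Of the 136 miRNAs 0% were called for ozone on fish oil (10 at an unadjusted p below 0.05; DESeq2 and limma-voom called 0), 0% on the normal diet (4; DESeq2 called 1) and 0.735% averaged over diets.

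The ratio of miR-143-3p to miR-145-5p, which needs no scaling between libraries, gave no diet difference past the threshold. Log2 of the ratio, with 0.5 added to each count, was 8.82 ± 0.61 in fish oil ozone, 8.85 ± 0.90 in fish oil air, 8.97 ± 0.54 in normal diet ozone and 8.91 ± 0.81 in normal diet air. The difference averaged over exposures was −0.11 (exact permutation p = 0.708, adjusted p = 0.986). The spread between rats within a group was several times this difference. Normal air 3 had the lowest ratio, with 6859 counts of miR-143-3p and 44 of miR-145-5p, whereas the other 5 rats of its group lay between 600 and 668 to 1.

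Within a diet, libraries high in one miRNA tended to be high in the other, but no relation passed adjustment over the 10 relations computed. Both levels of a library share its scaling, which can itself move them together, and the exposures were pooled within each diet. Over the 11 fish oil libraries Pearson r of the log2 CPM was 0.626 (permutation p = 0.0420, adjusted p = 0.271) and Spearman rho 0.627 (permutation p = 0.0440, adjusted p = 0.220). Without fish oil air 1 and 2 r was 0.447. Over the 12 normal diet libraries r was 0.533 (permutation p = 0.0726, adjusted p = 0.271) and rho 0.650 (permutation p = 0.0268, adjusted p = 0.220). Without normal air 3 and normal ozone 6 r was 0.939, so the value turned on these 2 libraries, both high in miR-145-5p.

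**Figure D4:**
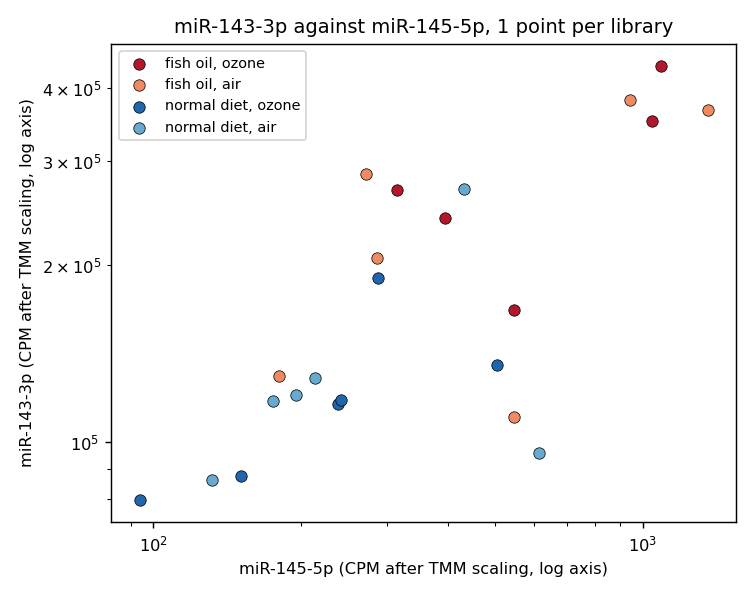
MiR-143-3p (vertical, log axis) against miR-145-5p (horizontal, log axis) in TMM-scaled CPM, 1 point per library, coloured by group. The 4 libraries in the upper right corner are on fish oil, and normal air 3 and normal ozone 6 lie to the right of the other normal diet libraries, at 614 and 504 CPM of miR-145-5p.

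No relation to red cell content passed within a diet. The erythrocyte index, log2 CPM of miR-451-5p (a red cell miRNA) minus that of miR-23a-3p, a measure that rises with haemolysis, had a median of −2.50 in fish oil ozone, −1.85 in fish oil air, −2.60 in normal diet ozone and −2.05 in normal diet air. Its r with miR-143-3p was −0.0657 on fish oil and −0.0195 on the normal diet, and with miR-145-5p 0.129 and −0.141 (permutation p at least 0.666, adjusted p at least 0.941). With the index as a covariate the averaged differences were +1.06 for miR-143-3p and +1.21 for miR-145-5p (edgeR adjusted p = 0.00162 and 0.00982), while the ozone call of miR-145-5p was lost (edgeR adjusted p = 0.0535).

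The opposite arms were far apart in how often they were counted. The 5p arm of Mir143 had 29 of 197018 reads of both arms (0.0147%, exact 95% interval 0.00986% to 0.0211%), whereas the 3p arm of Mir145 had 110 of 550 (interval 16.7% to 23.6%). Rats on fish oil had 26 of the 29 reads of miR-143-5p, 7 in ozone and 19 in air, and normal diet rats had 3, all of them in air. Fish oil air 1 alone had 9 of those 26 reads, and the next library, fish oil air 5, had 5. The 6 normal diet ozone libraries had 0 of 44252, which by a floor of 3 counts allows a share of up to 0.00678%. The upper end of the two-sided exact 95% interval was 0.00834%. As a share of both arms miR-143-5p was 0.0244% (0.0160% to 0.0358%) on fish oil and 0.00331% (0.000682% to 0.00967%) on the normal diet, from 7 of 11 and 2 of 12 libraries. The intervals cover counting error alone, so this difference was not tested across rats. For miR-145-3p the share was 20.6% (16.2% to 25.6%) on fish oil and 19.3% (14.5% to 24.8%) on the normal diet, with overlapping intervals.

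The pair was set beside other miRNAs known from smooth muscle and mesenchymal cells. This list includes the pair and was chosen with earlier results of these data known, so its counts are no independent support. Of 15 names on that list 7 were tested, and with fish oil averaged over exposures 6 of 7 rose, 0 fell and 1 did not pass, where 19.9% of all 136 were called higher. The count was 4 of 7 with the miRNA total as covariate, 5 of 7 with no low-count filter, with the erythrocyte index or with scaling without the pair, and 5 or 6 of 7 over libraries left out. Their median log2 difference was 1.15, against 0.06 over all 136. Without the pair 4 of 5 rose. MiR-199a-3p, a miRNA of fibroblasts and other mesenchymal cells, was higher by 1.20 (SE 0.21, edgeR adjusted p = 0.000112). MiR-497-5p, of the miR-15/16 seed family, was higher by 1.29 (SE 0.30, edgeR adjusted p = 0.00147), and miR-152-3p, of the miR-148 family, by 1.15 (SE 0.22, edgeR adjusted p = 0.000419). MiR-100-5p rose by 0.61 (SE 0.23, edgeR adjusted p = 0.0320). Its family member miR-99a-5p had +0.35 (SE 0.30, edgeR adjusted p = 0.378).

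In ozone 5 of the 7 rose, where 12.5% of all 136 were called higher, and in air 0 of 7, where 0.735% were, with medians of 1.42 and 0.86 against 0.00 and 0.08 over all 136. Both counts moved with the fit: in ozone 3 of 7 were called without fish oil ozone 3 and with the miRNA total as covariate, and in air 3 of 7 with total counts and 2 of 7 with DESeq2 or without fish oil air 2, fish oil air 3 or normal air 4. Scaled to the implied read total, 0 of 7 were called averaged over exposures, 5 of 7 were above 0, and in air 3 of 7 were. Summed without the pair, the list took a median of 1.54% of counts in fish oil ozone, 1.34% in fish oil air, 0.636% in normal diet ozone and 0.659% in normal diet air. Other members known from smooth muscle and mesenchyme were at the edge of detection: miR-214-5p had 0 counts in all libraries, and miR-214-3p, miR-195-5p and miR-490-3p had at most 5 counts in a library. MiR-199a-5p had at most 8 counts in a library and miR-125b-5p at most 6. None of these members was abundant enough to be tested.

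**Figure D5:**
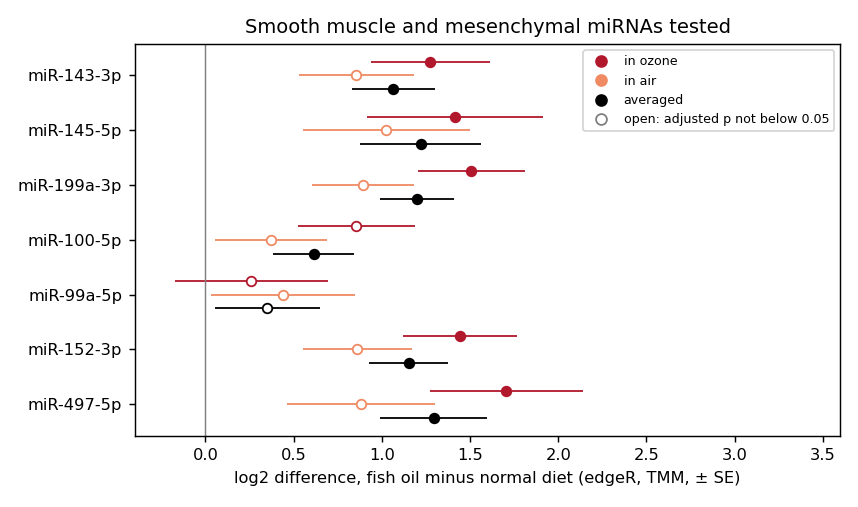
Log2 difference of fish oil minus normal diet (edgeR with TMM, ± SE) for the 7 tested miRNAs of the smooth muscle and mesenchymal list, in ozone, in air and averaged over exposures. Filled points passed an adjusted p below 0.05. Averaged over exposures 6 of 7 passed, and miR-99a-5p did not. The list was chosen with earlier results of these data known.

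Lists of markers of other sources, also chosen with earlier results known, were measured in the same libraries. Averaged over exposures, 36.8% of all 136 miRNAs were called with fish oil, 19.9% of the 136 as higher, and counts near these shares are no result about a list. The platelet and leukocyte list, which includes miR-191a-5p, took a median of 5.84% of counts in fish oil ozone (range 4.88% to 15.5%) and 13.2% in fish oil air (5.13% to 16.3%), against 23.3% in normal diet ozone (21.7% to 31.3%) and 23.3% in normal diet air (19.2% to 32.1%). MiR-191a-5p alone took 18.4% to 31.1% of counts in the normal diet libraries, so it made up most of the summed share there. Of the 6 tested members of the list 0 were called higher and 2 lower. The difference was above 0 in 4 of the 6, with a median of 0.15 against 0.06 over all 136. The endothelial list took a median of 2.42% and 2.54% on fish oil, in ozone and air, against 1.49% and 1.22% on the normal diet, and 3 of its 4 tested members rose. The liver list took 7.62% and 5.76% on fish oil against 9.03% and 11.7%, and 1 of 3 fell. Striated muscle miRNAs took 0.125% and 0.130% on fish oil against 0.107% and 0.0794%, with 0 of 3 called and miR-208a-3p at 0 in all libraries. The erythrocyte list took 1.88% and 1.98% on fish oil against 1.57% and 1.71% (2 of 4 rose), and the epithelial list 0.852% and 0.725% against 0.623% and 0.545% (2 of 5 rose). Their part in the diet difference of the pair was not tested.

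The miRNAs whose levels were most like the pair were named by Spearman rho of log2 CPM over the 23 libraries, which share the same scaling. For miR-143-3p they were miR-30a-5p (0.855), miR-181a-5p (0.832), miR-99b-5p (0.802), miR-199a-3p (0.775) and miR-676 (0.739), with miR-145-5p 6th at 0.695. For miR-145-5p the first was miR-143-3p (0.695), followed by miR-199a-3p (0.688), miR-30a-5p (0.672), miR-30e-5p (0.672) and let-7c-2-3p (0.634). The median rho with all other tested miRNAs was −0.01 for miR-143-3p and −0.02 for miR-145-5p. After centring each group on its mean, miR-30a-5p (0.813), miR-181a-5p (0.804), miR-99b-5p (0.804), miR-676 (0.801) and miR-10a-5p (0.773) led for miR-143-3p. MiR-145-5p was then 12th, at 0.565. For miR-145-5p the leading miRNAs after centring were miR-10a-5p (0.641), miR-143-3p (0.565), miR-125a-5p (0.548), miR-30a-5p (0.532) and miR-676 (0.464).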

How the data were processed

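The labels describe 24 serum samples; 23 libraries, joined to groups by animal number, were used. Per the labels' protocols, RNA from 100 µl of serum (10 ng per library) was read for 50 cycles from 1 end. The deposited expected counts give reads per mature miRNA locus; 50 of 832 loci hold fractions. The authors' RPM values equal the counts over an unstated library total plus 0.0001, to within 0.0401 reads. The submitters' processing notes name Bowtie 1.0.0, bcl2fastq, Partek and build rn5; their order, the annotation and any filter were not given in the sources used here.

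Loci of 1 name were summed and rounded to whole counts. After filterByExpr (minimum count 10, minimum total 15) 136 names, with 99.3% of counts, were tested with edgeR 4.0.16 (TMM, robust quasi-likelihood F test, 4 group means, 7 contrasts, two-sided) in R 4.3.3, adjusted by Benjamini-Hochberg within each contrast at 0.05. The SE of an edgeR difference was derived as its absolute value divided by the square root of the F statistic. DESeq2 1.42.0 and limma 3.58.1 were alternatives. Shares and ratios were compared by exact permutation (SciPy 1.17.1), within strata where averaged and adjusted over 18 tests; relations used 100000 resamples. Scripts were tested on simulated data. All 55 within-group library pairs differed beyond sampling noise (chi-square per degree of freedom at least 6.22). Rats were housed in pairs, and cages are not given.

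The miRNAs and lists were chosen with earlier results of these data known. Text names follow a fixed rule: the pair, their opposite arms, all tested members of the smooth muscle and mesenchymal list, the 5 miRNAs most like each, the leading miRNA of each library and the 2 of the erythrocyte index; list members named for low counts were chosen after their values were seen.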

Additional observations from a re-analysis of the deposited data

Results flagged for a closer look

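In 24 groups of 5 or 6 libraries, the highest and lowest values were set against their group by Dixon's criterion, which by chance flags about 1 group in 20, and 5 stood apart. Normal air 4 had 269123 CPM of miR-143-3p, against 128180 in the next library of its group. Normal ozone 6 had 3343 RPM of miR-143-3p, against 1890 in the next, and 12.5 RPM of miR-145-5p, against 2.87. Normal air 3 had 16.6 RPM of miR-145-5p, against 3.31 in the next, and the lowest log2 ratio of miR-143-3p to miR-145-5p, 7.27, against 9.16. All 3 libraries are from normal diet rats. Normal ozone 6 and normal air 3 had the lowest implied read totals of their groups, the totals by which RPM divides.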

How the results depend on the processing

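The averaged fish oil increases of both miRNAs and the ozone increase of miR-143-3p passed with TMM, total counts, DESeq2, limma-voom, no low-count filter and the erythrocyte index, and without each of the 23 libraries. Dividing by the implied read total ended these calls. For this and the changes below the cause was not tested. In ozone miR-143-3p had 0.36 with the implied total, 0.337 and 0.336 with limma on RPM (pseudocounts of 1 and 10) and 1.33 with the miRNA total as covariate. MiR-145-5p in ozone had 1.36 with scaling without the pair, 0.26, 0.38 and 0.10 on the implied total and RPM with 1 and 10 added, 1.40 with the erythrocyte index, 1.14 with the miRNA total, and 1.11 to 1.74 over libraries left out. In air miR-143-3p passed with total counts (1.02) and no filter (0.73) and ran from 0.62 to 1.12 over libraries left out; against 0.86 it had 0.0630 with the implied total and 0.0095 with limma on RPM (pseudocount 1, adjusted p = 0.990), and miR-145-5p was −0.0767 with the implied total. Averaged, miR-143-3p had 0.21, 0.173 and 0.173 and miR-145-5p 0.0933, 0.22 and 0.0518 on the implied total and RPM with 1 and 10 added, and miR-145-5p 0.97 with the miRNA total as covariate.

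As shares of the implied read total, the miR-143-3p differences were 0.0516 points in ozone, 0.0294 averaged and 0.0211 for ozone on the normal diet, and those of miR-145-5p −3.89e-05 in air and 1.37e-05 averaged. As a percent of all other counts, the miR-145-5p share passed in ozone (0.0644). Over libraries left out, the miR-143-3p share ran from 10.6 to 14.7 in air, and the miR-145-5p share from 0.0320 to 0.0490 in ozone and from 0.0308 to 0.0406 averaged, the lowest without fish oil air 1 and past the threshold no longer (exact permutation, adjusted p = 0.0510).

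Most ozone differences changed sign in some fit; that of miR-143-3p on fish oil did not (0.17 to 0.49 over 11 alternatives, 0.10 to 0.41 over libraries left out). On the normal diet miR-143-3p had 0.18, 0.17 and 0.16 on the implied total and RPM and −0.31 to 0.13 over libraries left out; miR-145-5p had 0.0421 on RPM and −0.54 to 0.12. Averaged over diets miR-143-3p had −0.000161 with scaling without the pair and −0.0570 to 0.19 over libraries; miR-145-5p had 0.0210, 0.19 and 0.0321 on the implied total and RPM, 0.0588 with limma-voom and −0.18 to 0.15. On fish oil miR-145-5p ran from −0.0918 to 0.57. Shares for ozone ran from −1.56 to 1.28 points for miR-143-3p on the normal diet, and for miR-145-5p from −0.00413 to 0.0154 on fish oil, −0.00926 to 0.00456 on the normal diet and −0.00400 to 0.00577 averaged. The log2 ratio for ozone on fish oil was 0.0367 with 5 added and −0.28 to 0.19 over libraries, −0.27 to 0.24 on the normal diet and −0.15 to 0.13 averaged; for fish oil it ran from −0.40 to 0.18 in air and −0.28 to 0.0118 averaged.

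Counts of calls: averaged over exposures 50, and 14 with the miRNA total. In air 8, against 15 (DESeq2, 7 higher and 8 lower), 38 (implied total), 32 and 29 (RPM), 3 (miRNA total), 14 (total counts, 11 higher and 3 lower, against 1 and 7) and 3 to 15 over libraries, among them 15 without fish oil air 3. In ozone 31 (17 higher, 14 lower), against 46 lower and 0 higher with the implied total, 13 higher and 16 lower with scaling without the pair, 48 (RPM with 1), 9 (miRNA total) and 12 without fish oil ozone 3. For ozone averaged over diets 1, and 0 in 7 of the 10 alternatives and without each of 18 of the 23 libraries. Counts of 5 to 49 limit miR-145-5p. No paired analysis was possible because the labels pair no rats.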
